A study of Mus musculus with 12 samples.

Results

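The expression of 10 genes that stand for the first steps of myeloid differentiation was followed in haematopoietic stem cells (HSCs): the granule protein genes Mpo, Elane, Prtn3 and Ctsg, the cytokine receptor genes Csf1r and Csf3r, and the transcription factor genes Cebpa, Spi1, Irf8 and Gfi1. They were chosen by name as a set of 10 among the 49585 genes in the count tables. HSCs were sorted from bone marrow as Lin-, Sca1+, ckit+, CD135- and CD150+ cells of 6 WT mice (C57BL/6J) and 6 Pon2-/- mice, all 10 to 14 weeks old and given as C57BL/6J background. The Pon2-/- mice carry a β-geo gene trap with loxP sites on both sides in intron 2 of Pon2, so that the exons before the trap can still be read. From each mouse, 8 wells of 10 cells were used for Smart-seq2 libraries, and each mouse has 1 column of read counts. The gate is described by the study as holding both long-term HSCs and MPP2 progenitors, and the lineage antibodies included markers of mature myeloid cells. Counts are given as CPM, that is, per 1000000 counts after TMM scaling of the library. All means below are given with the SD over 6 mice per genotype unless another number is stated.

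In the bone marrow, multipotent cells can carry low amounts of transcripts of several lineages before they commit, which is called lineage priming. Among the factors here, PU.1 (encoded by Spi1) and C/EBPα (Cebpa) drive the myeloid fate, GFI1 favours granulocytes and IRF8 favours monocytes and dendritic cells. Their targets include the receptors for G-CSF (Csf3r) and M-CSF (Csf1r) and the serine proteases and peroxidase of the primary granules, which are made in quantity at the promyelocyte stage. In a bulk measurement of sorted cells, a lower level can come from fewer cells of a type or from less RNA per cell, and these cannot be told apart.

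Prtn3 and Elane lie next to each other on mouse chromosome 10, both on the plus strand. Prtn3 had the highest level of the 10 members per kb of exons, and Elane had counts in 1 mouse. Their start regions are shown with those of Mpo and Ctsg, because these genes code for proteins of the same granule. The stretches were taken from RefSeq (GRCm38.p6) and hold no base of an exon annotated in GENCODE release M21. The Prtn3 stretch lies inside the annotated gene, after an exon of a longer transcript, and the other 3 lie before their genes. They are Prtn3 at chr10:79879417-79879613 (plus strand), Elane at chr10:79886062-79886246 (plus strand), Mpo at chr11:87793534-87793580 (plus strand) and Ctsg at chr14:56102575-56102824 (minus strand). Capitals mark GAGGAA, a core sequence bound by PU.1 and other ETS factors.
Prtn3: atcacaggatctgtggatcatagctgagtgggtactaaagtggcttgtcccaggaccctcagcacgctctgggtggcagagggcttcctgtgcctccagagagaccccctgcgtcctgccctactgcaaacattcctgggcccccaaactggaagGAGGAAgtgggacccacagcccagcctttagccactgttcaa
Elane: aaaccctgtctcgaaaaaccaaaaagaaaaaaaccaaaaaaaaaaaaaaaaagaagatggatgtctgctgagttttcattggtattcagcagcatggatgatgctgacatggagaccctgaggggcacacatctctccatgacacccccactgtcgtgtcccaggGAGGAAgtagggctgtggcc
Mpo: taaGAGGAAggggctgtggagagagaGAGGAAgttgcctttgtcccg
Ctsg: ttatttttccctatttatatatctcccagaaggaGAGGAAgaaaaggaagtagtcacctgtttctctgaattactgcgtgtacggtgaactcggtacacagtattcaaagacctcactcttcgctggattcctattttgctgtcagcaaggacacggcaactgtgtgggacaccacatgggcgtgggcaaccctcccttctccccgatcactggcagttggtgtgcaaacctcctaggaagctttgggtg
GAGGAA was searched on both strands from 250 bases before to 50 after each RefSeq start. It was found in 5 of the 8 members that had such a window and whose sequence was used, namely Mpo, Elane, Prtn3, Ctsg and Csf3r. It was not found in the windows of Cebpa, Irf8 and Gfi1. Of 27025 promoter windows of this length, 28.3% held it. In Prtn3 and Elane it began 95 and 85 bases before the start, with the same orientation. TTNNGNAA, a relaxed form of the C/EBP site, was found for Gfi1 alone among these 8 members and in 40.7% of all promoters, and the MYB core AACNG was found in all 8 and in 80.4% of all promoters. TGNGGT, a RUNX core, was present in Ctsg, Csf3r and a second start of Irf8 and of Gfi1, and in 45.6% of all promoters. A match is given only as a description of the sequence.

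Pon2 itself was examined first. Its level ranged from 56.4 to 202 CPM in WT HSCs (median 105) and from 1.16 to 33.1 CPM in Pon2-/- HSCs (median 29.9), so that the genotypes did not overlap (exact permutation test, p = 0.00216, the smallest p that 924 assignments allow). In edgeR, Pon2 had a log2 fold change of -2.13 (standard error, SE, 0.57) with an adjusted p of 0.586, and with DESeq2 the adjusted p was 0.0103. Totals were 12967791 to 24228280 counts per mouse, and 0 counts in a mouse leave an upper limit of 3 counts, or 0.121 to 0.235 CPM, for counting error only. All 12 genes of the HSC list, among them Slamf1, Procr and Mecom, had counts in every mouse, with a summed level of 2151 to 2900 CPM. The list and the sum include Flt3, which encodes CD135, a negative marker of the sort. The counts of Flt3 are therefore not a sign of HSC identity. Transcripts of 10 genes of mature neutrophils were also present, and their summed level ran from 1.72 to 11605 CPM among WT and from 53.6 to 17976 CPM among Pon2-/- mice. S100a9 was detected in every mouse and S100a8 was at 0 in 1 WT mouse. Monocyte and macrophage markers summed to 73.7 to 323 CPM among WT and 85.4 to 329 CPM among Pon2-/- mice, with means for Ly6c2 of 24.3 CPM (WT) and 63.0 CPM (Pon2-/-). Of these 10 markers, Cx3cr1, Ccr2 and Adgre1 were at 0 in all Pon2-/- mice and had counts in 2, 3 and 2 WT mice. The highest WT value of Ccr2 was 80.9 CPM, against a WT mean of 13.5 CPM. C1qa and C1qb went the other way, with counts in 3 and 2 WT mice and in 5 and 3 Pon2-/- mice, and Ms4a6c had counts in every mouse. These differences in detection were not tested. Summed levels of mast cell, basophil and eosinophil markers were at most 63.8 CPM (Prss34 and Prg2 at 0 in all mice) and those of T cell markers at most 57.7 CPM (Cd3e and Cd8a at 0). Erythroid markers summed to 9.16 to 51.1 CPM among WT and 0.833 to 25.3 CPM among Pon2-/- mice (Slc4a1 at 0). For 1 of these 8 erythroid markers the genotypes did not overlap, against 0.633% of the genes tested with edgeR. B cell markers summed to 25.5 to 467 CPM among WT and 69.3 to 10436 CPM among Pon2-/- mice. The highest sum was that of Pon2-/- replicate 3 and came mostly from Ighm (10299 CPM), and the next was 615 CPM in Pon2-/- replicate 5.

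The 10 members differed by orders of magnitude in HSCs. Prtn3, Spi1 and Csf3r were well expressed in every mouse, Irf8 and Gfi1 were low but had counts in every mouse, Mpo was found in 10 of 12 mice, and Cebpa (5 mice), Csf1r (4 mice), Ctsg (2 mice) and Elane (1 mouse) were found in fewer. A single mouse had counts for 5 to 9 of the 10 genes. To compare genes, CPM were divided by the length of the merged exons in kb. Prtn3 stood first with 179.6 ± 25.9 CPM per kb (SD, n = 12), above 97.3% of all tested genes. Spi1 followed with 57.4 ± 33.5 CPM per kb (SD, n = 12) and Csf3r with 20.1 ± 8.01 CPM per kb (SD, n = 12). Each of these 3 differed from the next gene by more than the SD of the difference within mice (log2 scale, 0.01 added to each level): Prtn3 lay above Spi1 in 12 of 12 mice, Spi1 above Csf3r in 11 of 12, and Csf3r above Ctsg in 11 of 12. Below them, the mean levels per kb were 6.51 for Ctsg, 5.56 for Mpo, 3.32 for Gfi1, 2.19 for Irf8, 0.963 for Cebpa, 0.854 for Elane and 0.234 for Csf1r, and of the neighbours in this order only Ctsg and Mpo differed beyond their spread, in the reverse of the order of their means (log2 difference of Ctsg to Mpo -5.31 with an SD of 4.35; Ctsg above Mpo in 2 of 12 mice). The mean of Ctsg was set by 2 mice, and its median over the 12 mice was 0.

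**Figure D1:**
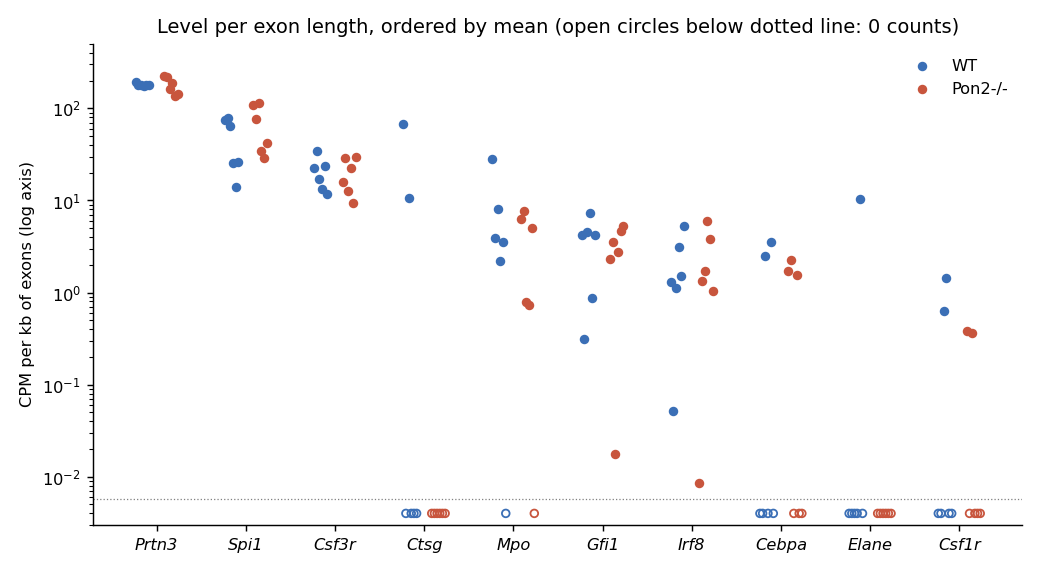
CPM per kb of merged exons on a log axis for the 10 members, ordered by their mean over 12 mice, with 1 point per mouse (blue, WT; red, Pon2-/-) and open circles below the dotted line for mice with 0 counts. Prtn3, Spi1 and Csf3r were found in 12 of 12 mice, while Elane was found in 1 and Ctsg in 2.

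Priming of other lineages was compared on the same scale with 3 lists of 6 genes. The median level per kb was 36.1 CPM for the megakaryocyte genes, of which 5 were found in every mouse (among them Pf4, which encodes a platelet chemokine). It was 3.07 CPM for the erythroid genes, led in CPM by Gata1 and Epor, and 0.193 CPM for the lymphoid genes, led by Dntt and Ebf1. For the members it was 6.03 CPM over the 4 granule genes, 10.1 CPM over the 2 receptors and 2.76 CPM over the 4 transcription factors, each taken over the mean levels of the genes. The differences between these medians were not tested.

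Between the genotypes, none of the 6 members that could be tested with edgeR passed both thresholds (adjusted p below 0.05 and a log2 fold change of more than 1 in either direction). In the same fit, 24 of 11848 tested genes passed, or 0.203%, of which 15 were higher (0.127%) and 9 lower (0.076%) in Pon2-/- HSCs. Of the members, Mpo, Prtn3, Csf3r, Spi1, Irf8 and Gfi1 passed the filter on low counts, and Elane, Ctsg, Csf1r and Cebpa did not. An unadjusted p below 0.05 was found for 0 of these 6 genes and for 3.13% of all tested genes. The WT and Pon2-/- mice overlapped for each of the 10 members, while they did not overlap for 0.633% of tested genes. With DESeq2, 1 member (Ctsg) passed among 1.2% of all genes with counts, and without its cutoff for outlying counts 2 members (Ctsg and Elane) passed among 3.73%. Counts of Ctsg came from 2 WT mice and those of Elane from 1.

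**Figure D2:**
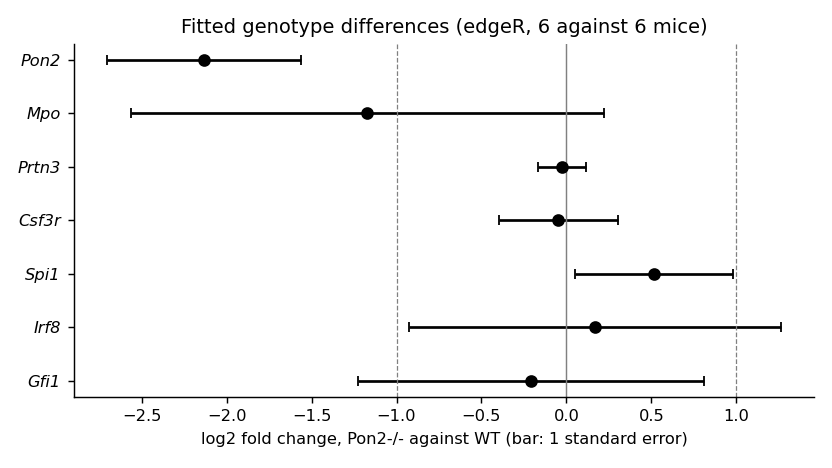
Log2 fold change of Pon2-/- against WT HSCs from edgeR, with bars of 1 standard error, for Pon2 and the 6 members that passed the filter on low counts; the dashed lines mark a change of 1. Prtn3 at -0.03 had the shortest bar (0.14) and Mpo at -1.17 the longest (1.39).

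Prtn3 (proteinase 3, a serine protease of the primary granule; ENSMUSG00000057729.12, chr10:79874476-79883174) had the highest level per kb among the 4 granule members in every mouse. In WT HSCs, its lowest, median and highest values were 302, 313 and 332 CPM, and in Pon2-/- HSCs they were 233, 303 and 385 CPM. The WT mice fell in a narrow band inside the range of the Pon2-/- mice. The means were 314 ± 9.82 CPM for WT and 308 ± 65.7 CPM for Pon2-/- mice, a log2 fold change of -0.03 (SE 0.14; edgeR, adjusted p = 1.0; exact permutation test, p = 0.673). The coefficient of variation (CV) was 3.13% in WT and 21.3% in Pon2-/- HSCs. Among the 603 tested genes with a mean level within 1.5 times that of Prtn3, the median CV was 21.4% in WT and 21.9% in Pon2-/- HSCs. None of the 11848 tested genes had a lower CV than Prtn3 in WT HSCs, a rank that was noticed after its values were seen; the difference in spread between the genotypes was not tested. Of the exon bases of Prtn3, 9.2% are shared with Plppr3 on the other strand, and reads there cannot be assigned by strand.

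The levels of Prtn3 were set beside those of the neutrophil markers, which varied widely. In WT replicate 6, the 10 neutrophil markers summed to 1.72 CPM and Prtn3 was at 314 CPM, and in WT replicate 2 they summed to 11605 CPM and Prtn3 was also at 314 CPM. In Pon2-/- replicate 1, which had the highest sum (17976 CPM), Prtn3 was at 385 CPM, its highest value. In Pon2-/- replicate 5, which had the lowest sum among the Pon2-/- mice (53.6 CPM), it was at 233 CPM, its lowest value. Other mice did not follow this order. Pon2-/- replicate 2 had the next lowest sum of its genotype (1572 CPM), with Prtn3 at 379 CPM. WT replicate 1 had a sum of 24.4 CPM, with Prtn3 at 332 CPM, its highest WT value. The part of neutrophil transcripts in the Prtn3 levels was not tested.

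Mpo (myeloperoxidase of the primary granule; ENSMUSG00000009350.13, chr11:87793581-87804413) varied widely. The lowest, median and highest values were 0, 12.8 and 97.2 CPM in WT HSCs and 0, 9.90 and 26.3 CPM in Pon2-/- HSCs. WT replicate 1 stood above all others and held 46.5% of the Mpo counts of all mice, and in each genotype replicate 6 had no counts. Mpo had a log2 fold change of -1.17 (SE 1.39; edgeR, adjusted p = 1.0; exact permutation test, p = 0.584), and without WT replicate 1 it was -0.06. WT replicate 1 had 24.4 CPM of summed neutrophil markers. The CV of Mpo over all mice was 139%, against a median of 77.4% for 2360 genes of like level. Of the exon bases of Mpo, 15.0% are shared with the antisense gene Gm11505.

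Ctsg (cathepsin G; ENSMUSG00000040314.1, chr14:56099881-56102574) had counts in 2 mice. It was at 69.8 CPM (1645 counts) in WT replicate 1 and at 10.8 CPM (269 counts) in WT replicate 3, which were also the 2 mice with the most Mpo. It had 0 counts in the other 4 WT mice and in all 6 Pon2-/- mice. The summed counts, not scaled for depth, were 1914 in WT and 0 in Pon2-/- HSCs, and WT replicate 1 held 85.9% of them. Because 4 WT mice were also at 0, these sums give no limit for a fold change between the genotypes. With DESeq2 the adjusted p was 3.98e-14, whereas edgeR without the filter gave an adjusted p of 0.281. Mice with 0 counts were found in both genotypes. The exact permutation test gave p = 0.455, the smallest p possible with counts in 2 mice, so it cannot decide on a difference.

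Elane (neutrophil elastase; ENSMUSG00000020125.6, chr10:79886247-79888215) was found in WT replicate 5 alone, with 139 counts (10.1 CPM). All other mice had 0 counts, among them the mice with the most Mpo and Ctsg. With counts in 1 mouse, the exact permutation test gives p = 1.0 whichever mouse that is, so it cannot decide on a difference. Prtn3 took between 66.6% and 100% of the summed levels per kb of the 4 granule genes in a mouse. The share was lowest in WT replicate 1, in which Ctsg took 23.5% and Mpo 9.87%. In all Pon2-/- mice the share of Prtn3 was 96.4% or more.

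**Figure D3:**
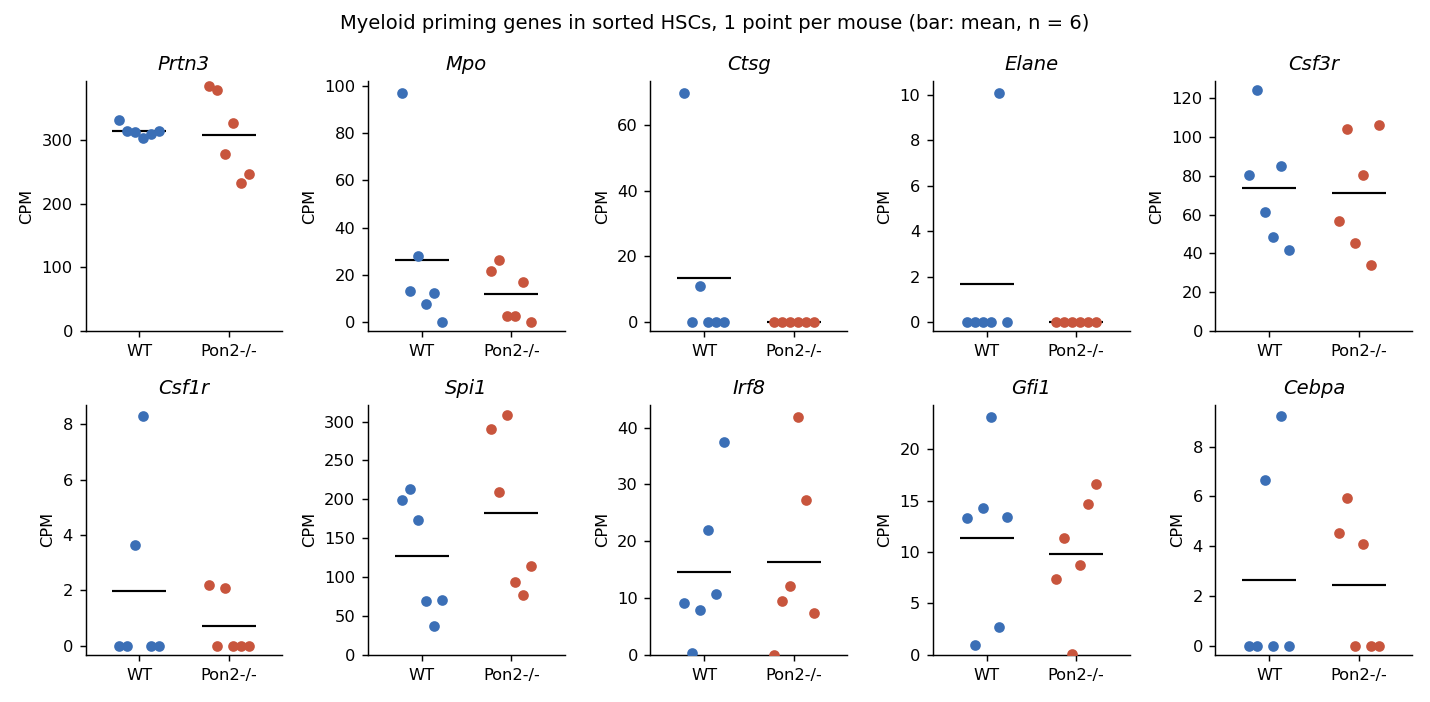
CPM of the 10 members in WT (blue) and Pon2-/- (red) HSCs on linear axes, with 1 point per mouse in the order of the replicate numbers and a bar at the mean of 6 mice. The WT values of Prtn3 lie between 302 and 332 CPM, and the genotypes overlap for every member. WT replicate 1 is the highest for Mpo (97.2 CPM) and Ctsg (69.8 CPM), and Elane has counts in WT replicate 5 alone.

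Csf3r, the receptor for G-CSF (ENSMUSG00000028859.14, chr4:126024550-126044440), was found in every mouse. In WT HSCs its lowest, median and highest values were 42.1, 70.8 and 124 CPM, and in Pon2-/- HSCs they were 34.0, 68.6 and 106 CPM. The ranges covered each other almost entirely. Csf3r had a log2 fold change of -0.05 (SE 0.35; edgeR, adjusted p = 1.0; exact permutation test, p = 0.835). Its CV over all mice was 39.9%, with a median of 43.1% among 2664 genes of like level.

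Csf1r, the receptor for M-CSF (ENSMUSG00000024621.15, chr18:61100598-61132149), was scarce. It was at 3.63 CPM in WT replicate 3, 8.30 CPM in WT replicate 4, 2.21 CPM in Pon2-/- replicate 1 and 2.10 CPM in Pon2-/- replicate 3, and had 0 counts in the other mice. Each genotype thus held 2 mice with counts, 196 counts in WT and 74 in Pon2-/- HSCs (exact permutation test, p = 0.697). Per kb of exons, Csf3r lay above Csf1r in 12 of 12 mice, by 9.34 to 41.0 times in the 4 mice with Csf1r counts. Of the Csf1r exon bases, 15.1% are shared with Hmgxb3 on the opposite strand.

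Spi1 (PU.1; ENSMUSG00000002111.8, chr2:91082390-91115756) was the most abundant of the 4 transcription factors in every mouse, per kb of exons. Its lowest, median and highest values were 37.6, 122 and 213 CPM in WT HSCs and 76.9, 162 and 308 CPM in Pon2-/- HSCs. The mean was higher in Pon2-/- HSCs (182 ± 102 CPM against 127 ± 76.4 CPM), but the log2 fold change of 0.52 had a standard error of 0.46 (adjusted p = 1.0 with edgeR; exact permutation test, p = 0.314). In both genotypes the values fell into a high and a low set that followed the replicate numbers, a contrast chosen after the values were seen. How many of all tested genes split in this way was not counted. WT replicates 1 to 3 had 173 to 213 CPM and WT replicates 4 to 6 had 37.6 to 70.8 CPM. Pon2-/- replicates 1 to 3 had 209 to 308 CPM and Pon2-/- replicates 4 to 6 had 76.9 to 114 CPM. The CV of 58.5% over all mice exceeded that of 98.7% of 1458 genes of like level, which had a median of 30.9%.

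What the replicate numbers mark is not given in the labels. Total counts moved in part with them: WT replicates 1 to 3 had at least 19149531 counts and WT replicates 4 to 6 at most 16054035, while Pon2-/- replicates 1 to 3 had 17555037 to 23122382 and Pon2-/- replicates 4 to 6 had 14671353 to 21418796. Transcripts that mark the sex of a mouse also moved with them. Xist, which is transcribed from the inactive X chromosome, was at 461 to 938 CPM in WT replicates 1 to 3 and Pon2-/- replicates 1 and 2 and at most 1.17 CPM in the other 7 mice, and Y-linked Ddx3y had counts in those 7 mice and 0 in the first 5. Pon2-/- replicate 3, with 308 CPM the highest for Spi1, had 0 Xist counts and 61.2 CPM of Ddx3y. With Ddx3y detection as a covariate, the log2 fold change of Spi1 was 0.93 (standard error 0.37), with an unadjusted p of 0.025 and an adjusted p of 1.0 in edgeR. The part of depth in the Spi1 levels was not tested.

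**Figure D4:**
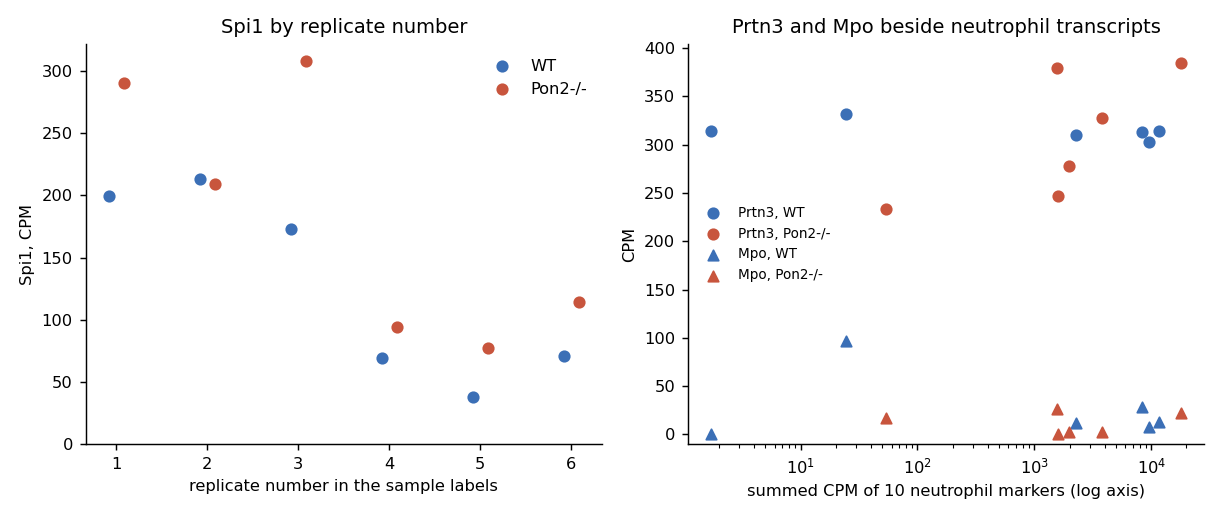
Left, CPM of Spi1 by the replicate number in the labels (blue, WT; red, Pon2-/-), with values of 173 to 308 CPM for numbers 1 to 3 and of 37.6 to 114 CPM for numbers 4 to 6. Right, CPM of Prtn3 (circles) and Mpo (triangles) against the summed CPM of 10 neutrophil markers on a log axis, with Prtn3 between 233 and 385 CPM over sums of 1.72 to 17976 CPM.

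Irf8, a factor of monocytes and dendritic cells (ENSMUSG00000041515.9, chr8:120736358-120756694), had lowest, median and highest values of 0.369, 9.93 and 37.5 CPM in WT HSCs and of 0.0598, 10.8 and 41.9 CPM in Pon2-/- HSCs. The lowest value was 1 count, and the levels overlapped between the genotypes. The fitted log2 fold change was 0.17 (SE 1.09; edgeR, adjusted p = 1.0), whereas the mean log2 CPM was lower by 0.15 in Pon2-/- HSCs (exact permutation test, p = 0.907), so that no direction can be given. The mean was lower in replicates 1 to 3 (5.79 CPM in WT, 7.22 CPM in Pon2-/-) than in replicates 4 to 6 (23.4 CPM in WT, 25.5 CPM in Pon2-/-), the reverse of Spi1. The 2 sets did not overlap in WT HSCs (at most 9.12 CPM against at least 10.7 CPM) and overlapped in Pon2-/- HSCs, and this contrast was chosen after the values were seen. Over the 12 mice, Pearson's r of log2 CPM between Spi1 and Irf8 was -0.58, the lowest of the 15 pairs among the 6 tested members. It was -0.60 within WT and -0.64 within Pon2-/- mice. Within WT mice, r was lower still for Csf3r with Irf8 (-0.89) and for Csf3r with Gfi1 (-0.85). Within Pon2-/- mice these pairs had an r of -0.0021 and 0.38. The points share libraries and depth, and the values of r are a description.

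Gfi1, a repressor that favours granulocytes (ENSMUSG00000029275.17, chr5:107716657-107726036), had lowest, median and highest values of 1.00, 13.4 and 23.2 CPM in WT HSCs and of 0.0569, 10.0 and 16.6 CPM in Pon2-/- HSCs. WT replicates 2 and 5 and Pon2-/- replicate 3 were low, and the genotypes overlapped. Gfi1 had a log2 fold change of -0.21 (SE 1.02; edgeR, adjusted p = 1.0; exact permutation test, p = 0.734). Per kb of exons, Irf8 lay above Gfi1 in 4 of 12 mice.

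Cebpa, which encodes C/EBPα (ENSMUSG00000034957.10, chr7:35119293-35121928), was found in 5 mice. It was at 6.65 CPM in WT replicate 3, 9.22 CPM in WT replicate 5, 4.54 CPM in Pon2-/- replicate 1, 5.95 CPM in Pon2-/- replicate 2 and 4.09 CPM in Pon2-/- replicate 4. The other mice had 0 counts, and the sums were 292 counts in WT and 273 in Pon2-/- HSCs (exact permutation test, p = 1.0). Spi1 lay above Cebpa, Irf8 and Gfi1 per kb in 12 of 12 mice.

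**Figure D5:**
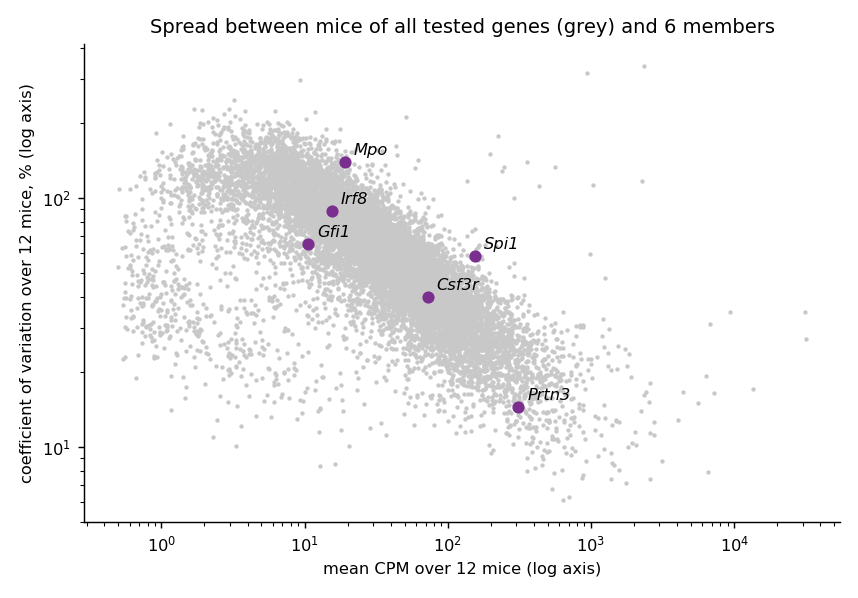
Coefficient of variation over 12 mice against mean CPM, both on log axes, for 11848 tested genes (grey) and the 6 tested members (purple). Spi1 (58.5%) and Mpo (139%) lie at the upper edge of genes of their level, and Prtn3 (14.4%) lies in the lower part.

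The wider granule, receptor and factor genes were read from 3 lists of 12 genes. None of the 11, 12 and 9 tested genes in them passed both thresholds in either direction, and 0 had an unadjusted p below 0.05 with edgeR. Over all tested genes these shares were 0.203% and 3.13%, so that a count of 0 in lists of this size does not set these genes apart. Median log2 fold changes were -0.05 for other granule and effector genes, 0.12 for other receptors and 0.03 for other factors of myeloid fate, with -0.01 over all tested genes. Srgn, which encodes the granule proteoglycan serglycin, had means of 1438 ± 206 CPM (WT) and 1365 ± 137 CPM (Pon2-/-). Lyz2 (lysozyme) was at 1002 ± 439 and 967 ± 754 CPM, in the same order. Kit, the receptor for stem cell factor, was at 475 ± 152 and 428 ± 74.7 CPM. Flt3, which encodes CD135 and was used as a negative marker in the sort, still had counts in every mouse, with means of 31.3 ± 16.8 and 48.3 ± 16.1 CPM. Among the factors, Myb was at 164 ± 33.1 and 195 ± 53.9 CPM, and Gfi1b, the close relative of Gfi1 in the megakaryocyte and erythroid lineages, was at 131 ± 79.1 and 153 ± 48.6 CPM.

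For each tested member, the genes with the most similar pattern of log2 CPM over the 12 mice were listed by Pearson's r among all other tested genes. For Spi1 they were Dap (0.94), Eya2 (0.89) and Anapc5 (0.88), and for Prtn3 they were Mthfd1l (0.89), 2900011O08Rik (0.88) and Aacs (0.87). Mpo was followed most closely by Mxd3 (0.94), Mtmr14 (0.90) and Tnfsf13 (0.86), and Csf3r by Fam214b (0.89), Sprtn (0.84) and Zc3h4 (0.81). For Irf8 they were Cd2ap (0.96), Dph2 (0.94) and Plekha1 (0.93), and for Gfi1 they were Mettl17 (0.93), Ankhd1 (0.92) and Knl1 (0.91). With ranks (Spearman), 2 of these 18 genes stayed among the first 3, 1 for Mpo and 1 for Spi1. No member was among the 3 genes most similar to another member, and r among members was at most 0.40 (Mpo and Prtn3).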

How the data were processed

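RNA-seq of sorted HSCs from 6 WT and 6 Pon2-/- mice was analysed. The authors trimmed reads with Trimmomatic 0.36, mapped them with STAR 2.5.3a to GRCm38.p5 and deposited read counts per gene (GENCODE M12), without normalization; the unstranded count was taken. The numbers of the samples were read from the labels. The members and lists were chosen with earlier results of these data known. Genes were named by a rule that took Pon2, the members, the 2 most abundant and any called gene of each list, and the 3 most similar genes per member; some genes that the rule takes are not reported here.

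edgeR 4.0.16 (R 4.3.3; TMM, filterByExpr, quasi-likelihood F-test, Benjamini-Hochberg over all tested genes) was used with genotype as the only term. Exact permutation tests were two-sided over all assignments of log2 CPM (prior count 2) and unadjusted over the 10 members. Alternatives used DESeq2 1.42.0, limma 3.58.1, other filters and leaving out each mouse. The covariate from Ddx3y was added after seeing the data. Each sample was taken as a separate mouse, from the numbers of mice given in the study. No member had a copy of at least 90% identity over at least 50% of a transcript among the transcripts compared (minimap2 2.31-r1302). Csf3r fell just short, with 96.2% of a transcript aligned to AC105061.2 at 87.9% identity. The edgeR procedure was tested on simulated data. Same-numbered mice were not treated as pairs. Spi1 had no RefSeq window, and no Csf1r sequence is shown.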

Additional observations from a re-analysis of the deposited data

Results flagged for a closer look

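Within each genotype, the mouse with the highest or lowest CPM was compared with the nearest other mouse for Pon2 and the 10 members. In 4 of 20 groups with any variation, the gap exceeded the limit of Dixon's test, while chance flags about 1 in 20 groups of normally spread values. That rate does not apply to Elane and Ctsg, for which most WT mice had 0 counts and a single mouse with counts is always set apart. Pon2 was at 1.16 CPM in Pon2-/- replicate 5, far below the other Pon2-/- mice. Mpo was at 97.2 CPM in WT replicate 1, with 27.9 CPM in the next WT mouse. In the same mouse Ctsg was at 69.8 CPM, with 10.8 CPM in the next. Elane was at 10.1 CPM in WT replicate 5 and at 0 in the other WT mice.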

How the results depend on the processing

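The count of members that passed both thresholds was 0 in every edgeR and limma analysis, including each without 1 mouse, and was 1 with DESeq2 (Ctsg) and 2 without its cutoff for outlying counts (Ctsg and Elane). Over all genes, the 24 calls became 8 without a filter beyond 1 read, 305 with DESeq2, 950 without that cutoff and 5 with a replicate block. Leaving out 1 mouse gave 20 to 28 calls. Over all tested genes, same-numbered mice did not deviate together (correlations of 0.000932 to 0.043), although Spi1 and, apart from number 3, Xist and Ddx3y followed the numbers; no pairing was assumed. With the block, the log2 fold change of Spi1 was 0.59 with an unadjusted p of 0.00926 and an adjusted p of 1.0. Only 1 of 6 WT mice correlated best with its own number. The log2 fold change of Pon2 was -2.13 with DESeq2, with an adjusted p of 0.0103 (0.0042 without the cutoff), and without Pon2-/- replicate 5 it was -1.88 with an adjusted p of 0.0295. Without 1 mouse it ranged from -2.27 to -1.88. The direction of Irf8 changed with limma voom (-0.084) and with the Ddx3y covariate (-0.16), and that of Csf3r with that covariate (0.051). The cause of these changes was not tested. Without 1 mouse, log2 fold changes ran from -1.59 to -0.06 for Mpo, -0.10 to 0.040 for Prtn3, -0.20 to 0.16 for Csf3r, 0.30 to 0.73 for Spi1, -0.37 to 0.71 for Irf8 and -0.45 to 0.13 for Gfi1. The sign changed for Prtn3 without Pon2-/- replicate 5 or 6, for Csf3r without WT replicate 2 or Pon2-/- replicate 1, 3 or 5, for Irf8 without WT replicate 2 or Pon2-/- replicate 4 or 5, and for Gfi1 without WT replicate 4 or Pon2-/- replicate 3. Differences of mean log2 CPM ran from -2.19 to 0.14 for Mpo, -0.12 to 0.021 for Prtn3, -0.22 to 0.11 for Csf3r, -0.97 to 0.94 for Irf8, -0.996 to 0.57 for Gfi1 and -1.03 to 0.44 for Csf1r; that of Elane was 0 without WT replicate 5. The lists of the 18 most similar genes kept 2 with Spearman's rho. With the length of the longest transcript, the level was 304 CPM per kb for Prtn3 and 4.46 CPM per kb for Irf8, which then lay above Gfi1, and Mpo lay above Ctsg. A value of 0 leaves an upper limit of 3 counts (0.121 to 0.235 CPM); whether depth bears on the zeros of the 4 scarce members was not tested.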
